A study of Mus musculus with 6 samples.

Results

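The transcripts of 8 early response genes, Ier2, Ier3, Ier5, Btg1, Btg2, Btg3, Tob1 and Tob2, were followed in primary mouse embryonic fibroblasts (MEFs, fibroblasts taken from embryos and grown in culture) exposed to hydrogen peroxide (H2O2). The genes were found by name on the array, which gave 14 probes of the 41174 non-control probes and 8 of the 27962 gene names in the files. The 6 one-colour Agilent arrays held RNA of untreated cells (0 h, 2 arrays), of cells after 2 h in 1 mM H2O2 (2 arrays) and of cells after 4 h in 1 mM H2O2 (2 arrays). All 3 groups were grown alike in serum-containing medium, and the labels name no genetic change in any group; they give no strain, genotype or embryo age. Each time point was measured in 2 experiments called independent, without saying whether embryos, cultures or days set them apart. Levels are log2 values of the processed signal relative to the 75th percentile of the signals of the same array, and they are compared only within a probe.

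Immediate early genes are transcribed within minutes of a stimulus from factors already present in the cell, without new protein synthesis. The Ier (immediate early response) proteins share their early induction rather than 1 common function, and include regulators of transcription and survival. The Btg and Tob proteins share an amino-terminal antiproliferative domain that binds the Cnot7 and Cnot8 deadenylases of the CCR4-NOT complex, and through it they speed the shortening of mRNA poly(A) tails and slow cell division. In fibroblasts both groups respond to growth factors, and several members respond to DNA damage and oxidative stress, in part through p53.

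Promoter sequences from RefSeq (build GRCm38.p6, the 250 bases before the transcript start) were held for 7 of the 8 genes, in 8 windows because Btg3 has a pair of starts; Ier2 is named only. The windows shown are those with a letter match to a motif that stress-responsive or early genes are known to carry. Capitals mark the cyclic AMP response element TGACGTCA in Btg2, a p53 decamer (the unit that p53 binds in pairs) in Ier5, and the shorter core TGACG (or CGTCA on the other strand) and TATAAA in Btg1 and Tob1.
Btg2 (chr1:134079156-134079405, minus strand): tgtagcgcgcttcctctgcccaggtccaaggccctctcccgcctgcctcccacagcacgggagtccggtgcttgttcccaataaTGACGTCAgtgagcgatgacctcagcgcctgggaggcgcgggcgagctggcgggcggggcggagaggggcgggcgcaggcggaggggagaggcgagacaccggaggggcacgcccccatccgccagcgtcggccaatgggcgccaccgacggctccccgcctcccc
Ier5 (chr1:155099637-155099886, minus strand): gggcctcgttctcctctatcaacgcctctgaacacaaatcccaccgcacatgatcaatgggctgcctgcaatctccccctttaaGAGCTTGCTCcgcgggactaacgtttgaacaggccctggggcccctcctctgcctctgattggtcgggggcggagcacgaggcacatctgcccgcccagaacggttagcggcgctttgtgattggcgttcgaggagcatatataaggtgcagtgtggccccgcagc
Btg1 (chr10:96616751-96617000, plus strand): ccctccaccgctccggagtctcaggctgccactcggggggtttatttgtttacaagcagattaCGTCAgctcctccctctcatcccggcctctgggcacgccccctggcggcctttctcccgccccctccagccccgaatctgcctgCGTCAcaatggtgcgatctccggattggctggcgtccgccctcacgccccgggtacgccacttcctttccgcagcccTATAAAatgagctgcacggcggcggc
Tob1 (chr11:94211204-94211453, plus strand): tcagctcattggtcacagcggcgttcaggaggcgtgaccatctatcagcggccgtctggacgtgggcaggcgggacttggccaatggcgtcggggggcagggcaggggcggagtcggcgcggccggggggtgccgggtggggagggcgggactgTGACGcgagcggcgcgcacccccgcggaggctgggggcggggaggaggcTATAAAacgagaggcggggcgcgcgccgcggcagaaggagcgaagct
In these windows the response element TGACGTCA lay 166 to 159 bases before the start of Btg2 and in no other of the 8 windows, and it was present in 1.55% of all 32851 promoter windows of the same length. The shorter TGACG, which overlaps the full element in Btg2, was found on either strand in Btg1 (at 2 places), Btg2 and Tob1 and in 17.8% of all windows. TATAAA lay 26 to 21 bases before the start of Btg1 and 47 to 42 bases before that of Tob1, and 12.4% of all windows held it. A p53 decamer by its letters lay 166 to 157 bases before the start of Ier5, and 7.13% of all windows held one. The CArG box bound by serum response factor (in 1.47% of all windows), the AP-1 site TGANTCA (6.75%) and the antioxidant response element TGACNNNGC (10.2%) had no letter match in the 8 windows. Both strands were searched, and a match of letters is a description of the window and not of binding.

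The signal's 75th percentile stood at 826 and 883 on the untreated arrays, 675 and 677 at 2 h and 674 and 754 at 4 h, between 57.3% and 68% of spots were well above background, and no spot was saturated. The fit was made on 25886 probes of 17192 genes, each well above background on every array of 1 group or more, with p-values adjusted over all of them by the Benjamini-Hochberg method, and a probe was called at an adjusted p under 0.05. All 13 fibroblast markers were well above background on all 6 arrays. At 2 h 5 of them rose and 1 fell, where 22.7% of all tested genes rose and 14.8% fell. The marker that fell was Pdgfra, with a log2 change of -1.08 at 2 h (limma, adjusted p = 0.0013) and -0.70 at 4 h (adjusted p = 0.0041). Of 8 endothelial markers 7 were tested, 4 rose at 2 h, and Cdh5 was not above background on any array. Only 4 of the 8 were well above background on all 6 arrays. Pecam1, Robo4 and Cldn5, all called up at 2 h, were so on 2, 4 and 3 arrays, with mean untreated log2 levels of -7.02, -6.95 and -6.49. They entered the fit through treated arrays where they are high, so their called rises follow in part from the filter. The summed signal of the endothelial markers, as a multiple of the 75th percentile, was 0.53 to 0.56 in untreated cells, 1.06 to 1.20 at 2 h and 1.04 at 4 h. Of 6 epithelial markers 5 were tested and 3 rose at 2 h, Epcam was above background on no array, and the summed signal was 1.60 to 1.69, 2.49 to 2.56 and 2.39 to 2.67. Among the risers Cdh1 was well above background on 4 of 6 arrays, with a mean untreated level of -6.30, and the same limit holds for its call. The part of such markers in the results below was not tested. The slide held replicate 1 of every group on slide 1 and replicate 2 on slide 2, and each time point had its own position on both slides, so position and time cannot be told apart.

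At 2 h, 5 of the 8 genes rose (Ier2, Ier3, Ier5, Btg2 and Btg3), 2 fell (Btg1 and Tob1) and Tob2 was not called, each gene counted by its brightest probe. Among the brightest probes of all tested genes 22.7% rose and 14.8% fell. At 4 h, 7 genes rose, none fell and Tob2 was not called, against 23.9% of all genes that rose and 18% that fell. The median log2 change of the 8 genes was 0.53 at 2 h and 0.47 at 4 h, where the median of the brightest probes of all genes was 0.12 and 0.07. Counted by probe, 8 of the 13 tested probes rose and 3 fell at 2 h (21.2% and 14.5% of all tested probes), and 9 rose and none fell at 4 h (23% and 17.6%). Both comparisons share the 2 untreated arrays. In RNA of whole cultures, fewer cells that express a gene and less of its RNA per cell cannot be told apart. The sign of small changes depends on the scale: with the 75th percentile 59.4% of called probes at 2 h and 56.7% at 4 h rose, and the median tested probe moved by 0.104 and 0.0586. With spike-in controls as the scale 12.3% and 23.5% of called probes rose, with no scaling 19.8% and 23.9%, with median centring 30.4% and 34.9%, with quantile normalization 43% and 45.6%, with normexp background correction and quantile normalization 44.1% and 45.7%, and with normexp and the 75th percentile 55% and 68.9%.

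**Figure D1:**
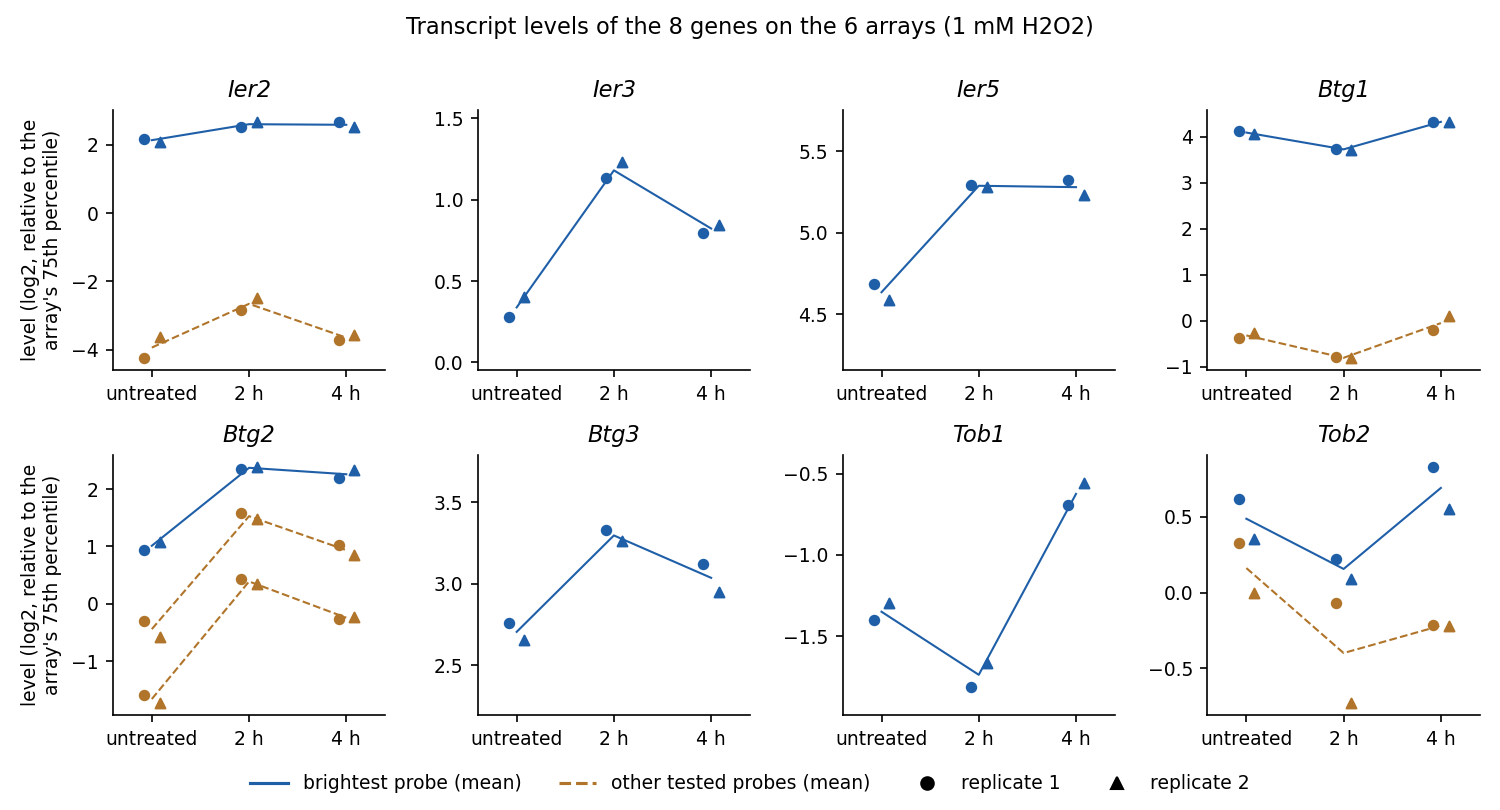
Log2 level of each of the 8 genes relative to the array's 75th percentile (y axis, own range per gene) in untreated cells and after 2 h and 4 h in 1 mM H2O2 (x axis); circles and triangles are replicates 1 and 2, lines join group means, blue is the brightest probe and brown the other tested probes. By group means, the brightest probes of Btg1, Tob1 and Tob2 lie lowest at 2 h and highest at 4 h. Those of Ier3, Btg2 and Btg3 lie highest at 2 h, and those of Ier2 and Ier5 differ little between 2 h and 4 h. From 2 h to 4 h the brightest probes of Btg2, Btg3 and Tob2 were not called.

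Btg2, a p53 target that binds the CCR4-NOT deadenylases and restrains entry into S phase, changed most of the 8 genes. Its brightest probe, which lies nearest the 3' end, had log2 levels of 0.94 and 1.08 in untreated replicates 1 and 2, 2.35 and 2.39 at 2 h, and 2.19 and 2.33 at 4 h. Both treated groups lay above both untreated arrays, and the 4 h arrays lay just below the 2 h arrays. The change was 1.36 ± 0.09 (SE, n = 2 arrays per group) at 2 h, a 2.56-fold rise (limma, adjusted p = 0.000924), and 1.25 ± 0.09 at 4 h, a 2.37-fold rise (adjusted p = 0.00123). From 2 h to 4 h it moved by -0.11 (95% interval -0.34 to 0.11, adjusted p = 0.385), which did not pass the test, and the sign turned to 0.08 with spike-in scaling. Averaged over the probes of Btg2, the change between the treated times was -0.445 and was called (limma, adjusted p = 0.0105).

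A pair of probes further upstream in Btg2 rose at 2 h and fell part of the way back by 4 h; their difference from the brightest probe was not tested. The probe 1822 bases upstream had levels of -0.31 and -0.58 in untreated cells, 1.58 and 1.47 at 2 h, and 1.02 and 0.85 at 4 h. The probe 2087 bases upstream had levels of -1.58 and -1.73, then 0.43 and 0.35, then -0.26 and -0.23. In both, the 4 h arrays lay between the other groups without overlap. At 2 h they rose 3.91-fold (log2 1.97 ± 0.12, limma adjusted p = 0.000913) and 4.14-fold (log2 2.05 ± 0.08, adjusted p = 0.000323). At 4 h the rises were 2.60-fold (adjusted p = 0.00225) and 2.67-fold (adjusted p = 0.00077). From 2 h to 4 h they fell by 0.59 (adjusted p = 0.0276) and by 0.63 (adjusted p = 0.00774) on the log2 scale; the first fall lost its call without any one of the 2 h or 4 h arrays (adjusted p between 0.0673 and 0.142), the second without 2 h replicate 1 (adjusted p = 0.0611). The rises of all 3 Btg2 probes at 2 h and at 4 h were called under all 7 scalings and without any 1 of the 6 arrays. Within slides 1 and 2 the brightest probe rose by 1.41 and 1.31 at 2 h and by 1.24 and 1.25 at 4 h.

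Ier3 (also known as IEX-1), a stress-inducible protein that modulates apoptosis and survival signalling, rose at 2 h and came part of the way back at 4 h. The single Ier3 probe had log2 levels of 0.28 and 0.40 in untreated cells, 1.13 and 1.23 at 2 h, and 0.80 and 0.85 at 4 h. The 3 groups did not overlap, and the 4 h arrays lay between the others. Its change was 0.84 ± 0.08 at 2 h, a 1.79-fold rise (limma, adjusted p = 0.00222), and 0.48 ± 0.08 at 4 h, a 1.40-fold rise (adjusted p = 0.00958). The rise at 2 h was called under all 7 scalings and without any 1 array, with 0.85 and 0.83 within the slides. The fall of 0.36 from 2 h to 4 h (adjusted p = 0.0294) lost its call without any 1 of the 6 arrays (adjusted p between 0.0548 and 0.129), and the rise at 4 h lost it without untreated replicate 1 (adjusted p = 0.0644). Each was called in 4 of 7 scalings, and with spike-in scaling the values were 0.22 at 4 h (adjusted p = 0.117) and -0.17 from 2 h to 4 h (adjusted p = 0.246).

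Ier5, which responds to radiation and heat and acts with the phosphatase PP2A on heat shock factor 1 (HSF1), rose by 2 h and held its level. Log2 levels of its probe were 4.68 and 4.59 in untreated cells, 5.30 and 5.28 at 2 h, and 5.33 and 5.23 at 4 h. All 4 treated arrays lay above both untreated arrays, and the 2 h and 4 h arrays overlapped. It rose by 0.65 ± 0.07 at both times, 1.57-fold at 2 h (limma, adjusted p = 0.00354) and 1.56-fold at 4 h (adjusted p = 0.0036). Between 2 h and 4 h the difference was -0.01 (95% interval -0.19 to 0.17), with the sign turned to 0.18 by spike-in scaling. Both rises held without any 1 array, with 0.61 and 0.70 at 2 h and 0.64 and 0.65 at 4 h within the slides. With normexp correction and the 75th percentile the adjusted p was 0.0598 at 2 h and 0.0687 at 4 h.

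Ier2, a nuclear early response protein linked to transcription, showed a smaller rise that depended on the scale. Its brightest probe had log2 levels of 2.19 and 2.09 in untreated cells, 2.53 and 2.68 at 2 h, and 2.66 and 2.52 at 4 h. The treated arrays all lay above the untreated ones, and the treated groups overlapped with each other. The change was 0.47 ± 0.09 at 2 h, 1.38-fold (limma, adjusted p = 0.02), and 0.45 ± 0.09 at 4 h, 1.37-fold (adjusted p = 0.0198). Before scaling its processed signal was 3758 and 3757 in untreated cells, 3891 and 4351 at 2 h and 4256 and 4322 at 4 h. With no scaling the change at 2 h was 0.13 (adjusted p = 0.28) and with spike-in scaling 0.016 (adjusted p = 0.878), and the call at 2 h was lost without any 1 of the untreated or 2 h arrays (adjusted p between 0.0576 and 0.103), that at 4 h without either untreated array or without 4 h replicate 1 (adjusted p between 0.0756 and 0.0979). Within slides 1 and 2 the change was 0.34 and 0.59 at 2 h and 0.47 and 0.43 at 4 h.

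A dim Ier2 probe 198 bases upstream rose at 2 h and fell back by 4 h; its difference from the brightest probe was not tested. Its log2 levels were -4.25 and -3.63 in untreated cells, -2.83 and -2.48 at 2 h, and -3.73 and -3.57 at 4 h. Only the 2 h arrays stood above the untreated ones, and the 4 h arrays overlapped with the untreated arrays. It rose by 1.28 ± 0.24 at 2 h, 2.43-fold (limma, adjusted p = 0.0181), had a change of 0.29 ± 0.24 at 4 h (adjusted p = 0.391) and fell by 0.99 from 2 h to 4 h (adjusted p = 0.0429). Without untreated replicate 1 or either 2 h array the rise lost its call (adjusted p between 0.0527 and 0.0868), and without any 1 of the 2 h or 4 h arrays so did the fall (adjusted p between 0.109 and 0.166). The rise was called in 5 of 7 scalings and was 0.53 with normexp and quantile normalization. With normexp correction and the 75th percentile it was 0.79 (adjusted p = 0.223) and the later change -0.08 (adjusted p = 0.875). Averaged over the probes of Ier2, the change between the treated times was -0.504 and was called (limma, adjusted p = 0.0488).

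**Figure D2:**
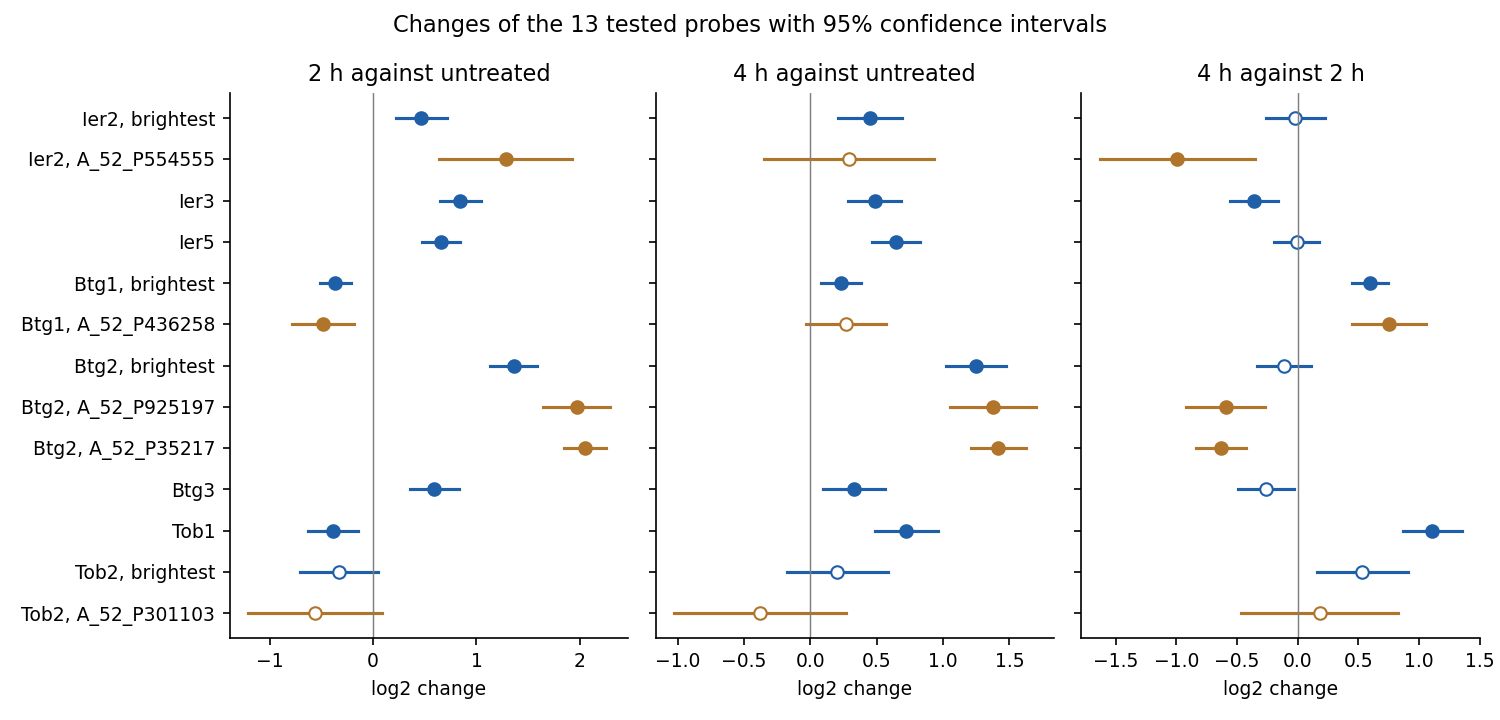
Log2 change (x axis) of the 13 tested probes of the 8 genes in each of the 3 comparisons, with 95% confidence intervals from limma; filled points were called at an adjusted p under 0.05, blue is the brightest probe of a gene and brown its other probes. Btg2 lies farthest to the right at 2 h and at 4 h. Btg1, Tob1 and the brightest Tob2 probe lie left of 0 at 2 h and right of it at 4 h, Tob2 without a call.

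Btg3, an antiproliferative member that binds the transcription factor E2F1, rose at 2 h and less at 4 h. Levels of its probe were 2.76 and 2.65 in untreated cells, 3.33 and 3.26 at 2 h, and 3.12 and 2.95 at 4 h on the log2 scale. The 4 h arrays lay between the untreated and the 2 h arrays, with no overlap. The change was 0.59 ± 0.09 at 2 h, 1.51-fold (limma, adjusted p = 0.00945), and 0.33 ± 0.09 at 4 h, 1.26-fold (adjusted p = 0.0405). The value at 2 h was 0.14 with spike-in scaling (adjusted p = 0.178), and its call was lost without untreated replicate 2 or 2 h replicate 1 (adjusted p 0.0584 to 0.0675). The call at 4 h was lost without any 1 array other than 4 h replicate 2 (adjusted p between 0.0767 and 0.17), and the value there was 0.07 with spike-in scaling. The difference from 2 h to 4 h was -0.26 (adjusted p = 0.0954); with the replicate number, which is also the slide, as a block it passed the test (adjusted p = 0.0312). Within slides 1 and 2 the change was 0.58 and 0.61 at 2 h and 0.37 and 0.30 at 4 h.

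Btg1, the closest relative of Btg2 and likewise a partner of the deadenylases, fell at 2 h and rose again by 4 h. Its brightest probe had log2 levels of 4.12 and 4.06 in untreated cells, 3.74 and 3.71 at 2 h, and 4.32 and 4.33 at 4 h. The 3 groups did not overlap, with the 2 h arrays lowest and the 4 h arrays highest. At 2 h it fell by 0.36 ± 0.06, 1.29-fold (limma, adjusted p = 0.0107), and from 2 h to 4 h it rose by 0.60 ± 0.06, 1.51-fold (adjusted p = 0.00452). At 4 h it was 0.23 ± 0.06 above untreated cells (adjusted p = 0.0322), a call lost without any 1 of the 6 arrays (adjusted p between 0.07 and 0.158) and a sign that turned to -0.03 with no scaling or with spike-in scaling. The call at 2 h was lost without any 1 of the untreated or 2 h arrays (adjusted p between 0.0559 and 0.0814), while the rise from 2 h to 4 h was called without any 1 array (adjusted p between 0.0185 and 0.0444). The fall at 2 h kept its sign in all 7 scalings, between -0.82 and -0.36.

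The probe of Btg1 656 bases upstream moved the same way. Its log2 levels were -0.37 and -0.26 in untreated cells, -0.80 and -0.81 at 2 h, and -0.19 and 0.10 at 4 h. The 2 h arrays were the lowest and the 4 h arrays the highest. It fell by 0.49 ± 0.12 at 2 h (limma, adjusted p = 0.0326) and rose by 0.75 ± 0.12 from 2 h to 4 h (adjusted p = 0.0127), and its value at 4 h against untreated cells was 0.27 (adjusted p = 0.13). The fall lost its call without any 1 of the untreated or 2 h arrays (adjusted p between 0.102 and 0.143), and the later rise without either 2 h array (adjusted p 0.0665 to 0.0802). Within slides 1 and 2 the brightest Btg1 probe changed by -0.38 and -0.35 at 2 h, and by 0.58 and 0.62 from 2 h to 4 h.

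Tob1, a larger antiproliferative protein that also binds cytoplasmic poly(A)-binding protein and so brings the deadenylases to mRNA tails, had the widest swing between the treated times. The log2 levels of its single probe were -1.40 and -1.30 in untreated cells, -1.81 and -1.66 at 2 h, and -0.69 and -0.56 at 4 h. The 2 h arrays lay below and the 4 h arrays above both untreated arrays. It fell by 0.39 ± 0.09 at 2 h, 1.31-fold (limma, adjusted p = 0.0323), and was 0.72 ± 0.09 above untreated cells at 4 h, 1.65-fold (adjusted p = 0.00539). From 2 h to 4 h it rose 2.16-fold (log2 1.11 ± 0.09, adjusted p = 0.00348), a call made under all 7 scalings and without any 1 array. The fall at 2 h was called only without 4 h replicate 2 when 1 array was left out (adjusted p = 0.0492, and between 0.0511 and 0.147 without another); it kept its sign in all 7 scalings, between -0.84 and -0.28. Within slides 1 and 2 the change was -0.41 and -0.36 at 2 h and 0.71 and 0.74 at 4 h.

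Of all 17192 tested genes, 262 (1.52%) fell at 2 h and rose at 4 h against untreated cells by their brightest probes, as Btg1 and Tob1 did, and 2849 (16.6%) rose at both times, as the other 5 called genes did. Since both comparisons use the same untreated arrays, these shares describe the arrays and are not a test. The place of a gene in them depends on the scale. The rise at 4 h was called in 1 of 7 scalings for Btg1, 2 for Btg3, 3 for Ier2, 4 for Ier3, 6 for Tob1, 6 for Ier5 and 7 for Btg2. The test of 4 h against 2 h, which uses no untreated level, called 2 of the 8 genes up (Btg1 and Tob1) and 1 down (Ier3), where 13.1% of all genes were called up and 15.7% down. With the replicate block 3 were called up and 2 down. Counted by probe, 3 of 13 rose and 4 fell between the treated times (13.3% and 14.8% of all tested probes). Ier3, which rose at both times and fell between them, did so with 432 of all genes (2.51%).

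Tob2, the close relative of Tob1 with the same partners, was not called by its brightest probe with the 75th percentile. The log2 levels of that probe were 0.62 and 0.36 in untreated cells, 0.22 and 0.09 at 2 h, and 0.83 and 0.55 at 4 h. Both 2 h arrays lay below the untreated arrays, and the 4 h arrays overlapped with them. The change was -0.33 ± 0.14 at 2 h (95% interval -0.71 to 0.05, limma adjusted p = 0.138), 0.20 ± 0.14 at 4 h (interval -0.17 to 0.58, adjusted p = 0.314; -0.06 with no scaling and with spike-in scaling) and 0.53 ± 0.14 from 2 h to 4 h (adjusted p = 0.0534). With the replicate number as a block the value at 2 h (adjusted p = 0.0226) and that from 2 h to 4 h (adjusted p = 0.0118) passed the test. The rise from 2 h to 4 h was also called in 4 of 7 scalings, as 0.56 with quantile normalization (adjusted p = 0.0476), and the fall at 2 h in 2 of 7, as -0.78 with spike-in scaling. Within slides 1 and 2 the change was -0.40 and -0.27 at 2 h, and 0.61 and 0.46 from 2 h to 4 h.

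The other probes of Tob2 gave little more. The probe 717 bases upstream had log2 levels of 0.33 and -0.003 in untreated cells, -0.07 and -0.73 at 2 h, and -0.22 at both 4 h arrays. All treated arrays lay below the untreated ones, but the 2 h arrays differed widely from each other. Its change was -0.56 ± 0.25 at 2 h (limma, adjusted p = 0.143) and -0.38 ± 0.25 at 4 h (adjusted p = 0.278), and neither passed; with spike-in scaling it fell by 1.01 at 2 h (adjusted p = 0.0195). A probe 9462 bases upstream, placed on a separate cDNA clone named Tob2 in the files, was well above background on 1 of 6 arrays, 2 h replicate 2, with a processed signal of 13.1, and was not tested.

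**Figure D3:**
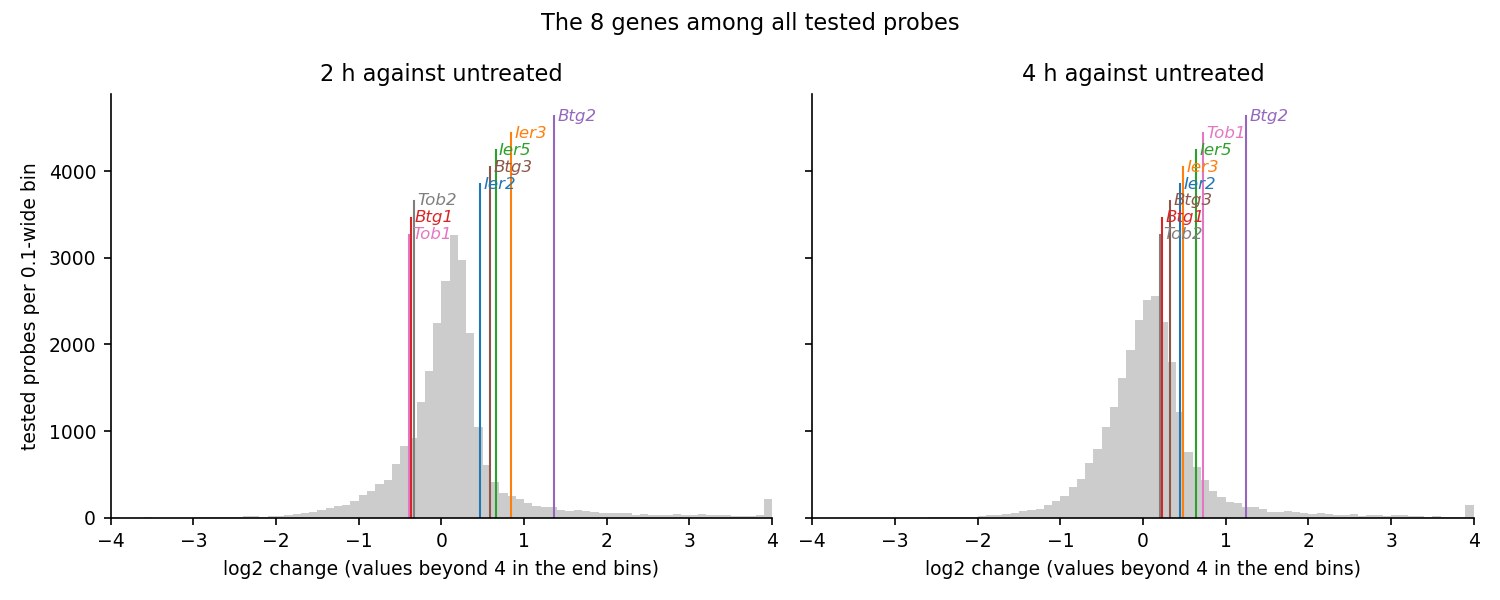
Distribution of log2 changes over all tested probes (grey, probes per bin 0.1 wide, y axis) at 2 h and at 4 h against untreated cells, with a line at the change of each of the 8 genes' brightest probe. At 2 h the lines fall on both sides of 0, with Btg2 at 1.36 and Tob1 at -0.39. At 4 h all 8 lines lie to the right of 0, with Tob2 and Btg1 nearest to it.

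The order of the changes differed between the times. At 2 h Btg2 (1.36) was followed by Ier3 (0.84), Ier5 (0.65), Btg3 (0.59), Ier2 (0.47), Tob2 (-0.33), Btg1 (-0.36) and Tob1 (-0.39), as log2 changes of the brightest probes. The 95% intervals of Ier3, Ier5, Btg3 and Ier2 overlapped with each other, as did those of Tob2, Btg1 and Tob1. That of Btg2 (1.13 to 1.58) lay above all others. At 4 h Btg2 (1.25) was followed by Tob1 (0.72), Ier5 (0.65), Ier3 (0.48), Ier2 (0.45), Btg3 (0.33), Btg1 (0.23) and Tob2 (0.20). The interval of Btg2 (1.02 to 1.47) again lay above the others, and Tob1 had moved from the last to the second place. The interval of Tob1 at 4 h (0.48 to 0.96) overlapped with those of Ier5, Ier3, Ier2, Btg3 and Tob2, so its place among them is not settled. In all, 5 genes at 2 h had both arrays above both untreated arrays and 3 had both below (of all genes 48% and 27.4%); at 4 h 7 genes had both above and 1 overlapped (of all genes 41.9% were above and 31.4% below).

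**Figure D4:**
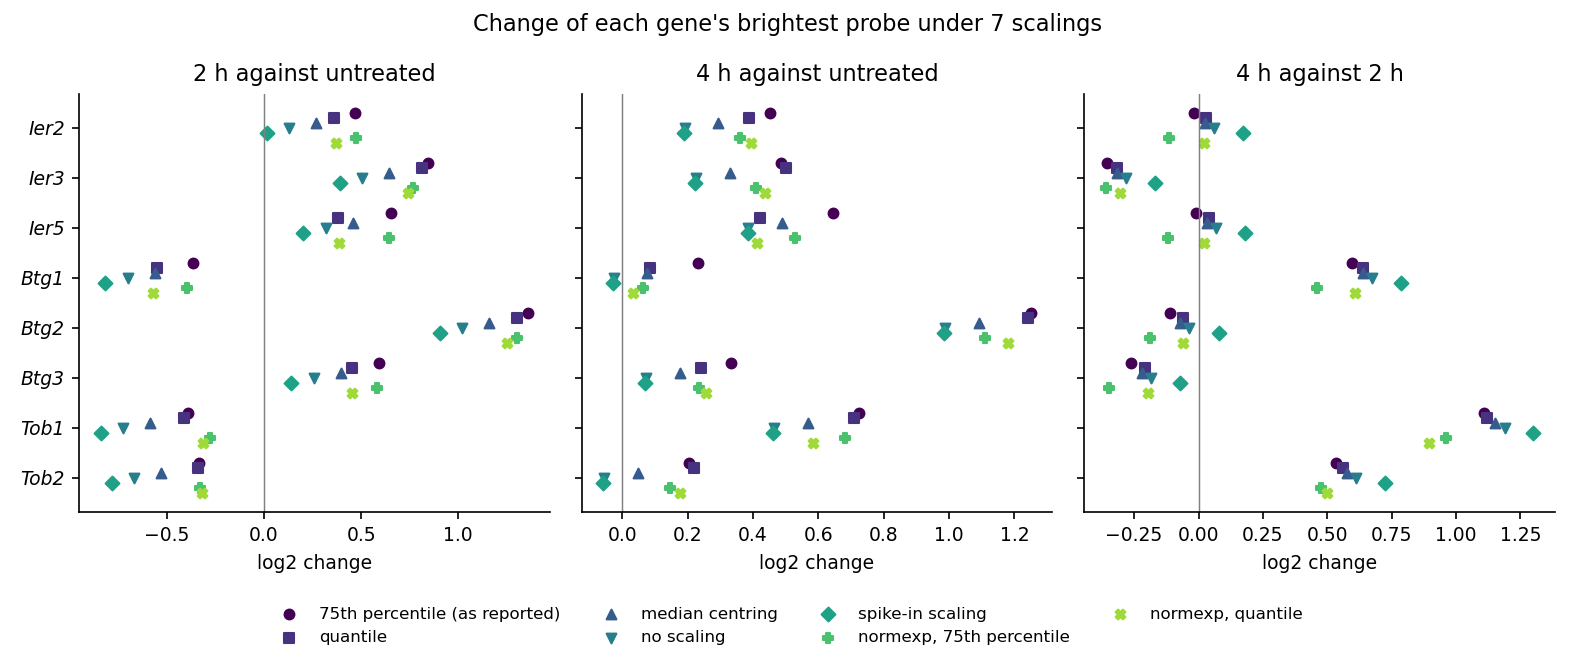
Log2 change (x axis) of each gene's brightest probe in the 3 comparisons under 7 ways to scale the arrays, 1 symbol per scaling. Btg2, Ier3 and Ier5 stay right of 0 at 2 h and at 4 h and Btg1 and Tob1 left of 0 at 2 h under all 7; Ier2 at 2 h ranges from 0.016 with spike-in scaling to 0.47, and Btg1 and Tob2 at 4 h cross 0.

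Under the spike-in scale every change was lower by 0.451 at 2 h and by 0.262 at 4 h than with the 75th percentile. On that scale Btg2 still rose by 0.91 at 2 h (limma, adjusted p = 0.00263), Ier3 by 0.39 (adjusted p = 0.0211) and Ier5 by 0.20 (adjusted p = 0.0412), and Btg1 fell by 0.82 (adjusted p = 0.000814), Tob1 by 0.84 (adjusted p = 0.00347) and Tob2 by 0.78 (adjusted p = 0.0065). At 4 h Btg2 (0.98, adjusted p = 0.00276), Tob1 (0.46, adjusted p = 0.0244) and Ier5 (0.38, adjusted p = 0.00812) rose on it. These 3 were the genes called up at 4 h there, and none was called down.

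The genes whose 6-array profile lay nearest to each called gene were named by distance alone, as the Euclidean distance of log2 values relative to the untreated mean over 6 arrays, among 12223 genes. Zfp319 (0.245) and Pla1a (0.261) were nearest to Btg2, which had the most distant neighbours of the 7 called genes. Btg3 had the closest, Phkg2 (0.0377) and Epop (0.0444). Nearest to Ier2 were Serf2 (0.067) and Rad23b (0.104), to Ier3 Lmod3 and Arl5b (both 0.129), and to Ier5 Kcmf1 (0.0802) and Tmem251 (0.0962). Dph2 (0.0882) and Fam207a (0.0962) were nearest to Btg1, and Zfp944 (0.11) and Olfr1065 (0.135) to Tob1. Dph2 shared the sequence of calls of Btg1, with -0.38 at 2 h and 0.26 at 4 h. Zfp944 (-0.41 and 0.75) and Olfr1065 (-0.45 and 0.71) shared that of Tob1. The neighbours were picked by the same 6 values, so shared calls follow largely from the choice. Of 19 alternative settings, 5 ended the call of Dph2 at 2 h and 11 that at 4 h. At 2 h 8 ended that of Zfp944 and 8 that of Olfr1065.

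Most other immediate early genes rose at 2 h. Of 37 tested, 27 rose, 1 fell and 9 were not called, with a median log2 change of 0.62, where 22.7% of all genes rose, 14.8% fell and the median was 0.12. At 4 h 17 rose, 5 fell and 15 were not called, with a median of 0.38, where 23.9% of all genes rose, 18% fell and the median was 0.07. Fosb, an AP-1 subunit, rose by 3.17 ± 0.22 at 2 h (limma, adjusted p = 0.00117) and by 1.01 at 4 h (adjusted p = 0.0237), and Atf3, a stress-induced partner of the AP-1 family, by 2.61 ± 0.06 (adjusted p = 0.000143) and by 0.42 (adjusted p = 0.00862). With normexp and quantile normalization the values of Fosb were 1.86 at 2 h and 0.38 at 4 h, and its call at 4 h was lost without either untreated or either 4 h array (adjusted p between 0.0809 and 0.102). That of Atf3 at 4 h was lost without either untreated array (adjusted p 0.0576 to 0.0581), and its value there was 0.15 with spike-in scaling (adjusted p = 0.104). Fosl1, another AP-1 subunit, rose by 1.27 at 2 h and by 1.73 at 4 h (adjusted p = 0.000994 and 0.000604). Fos had changes of 0.61 and 0.93 and the zinc finger factor Egr1 of 0.62 and 0.50 at 2 h and 4 h, all called with the main setting (adjusted p between 0.00259 and 0.00911). Of 19 alternative settings, 5 ended the call of Fos at 2 h, where its lowest value was 0.162. The call of Egr1 ended in 2 of 19 at each time, with lowest values of 0.172 at 2 h and 0.24 at 4 h. Fosb and Atf3 fell by 2.16 and by 2.19 from 2 h to 4 h (adjusted p = 0.00521 and 0.00195), the direction of Ier3, whereas Fosl1 rose by 0.46 (adjusted p = 0.0186). Between the treated times 16 of the 37 fell, 3 rose and 18 were not called (median -0.29). Of all genes 15.7% fell and 13.1% rose (median -0.08).

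**Figure D5:**
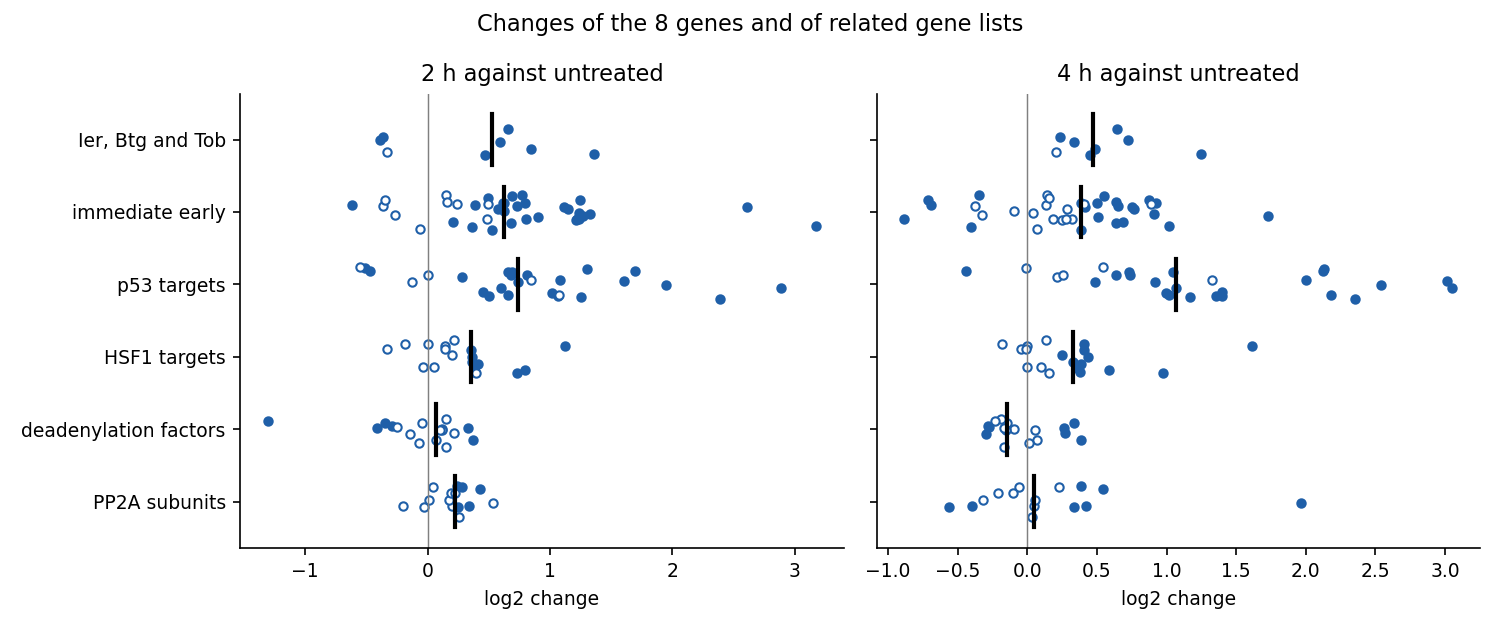
Log2 changes at 2 h and at 4 h (x axis) of the brightest probes of the 8 genes and of the tested genes of 5 related lists (rows); filled points were called at an adjusted p under 0.05 and vertical bars are medians. The bar of the p53 targets moves from 0.74 at 2 h to 1.07 at 4 h, and that of the deadenylation factors stays between -0.15 and 0.07.

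The deadenylation list held subunits of CCR4-NOT, whose deadenylases Btg and Tob proteins bind, and other deadenylation factors outside that complex. Of its 17 tested genes 2 rose, 4 fell and 11 were not called at 2 h (median 0.07). At 4 h 4 rose, 3 fell and 10 were not called (median -0.15). Of all genes 22.7% rose and 14.8% fell at 2 h (median 0.12), and 23.9% rose and 18% fell at 4 h (median 0.07). This split depends on the scale, and with spike-in scaling 13 of the 17 fell at 2 h and 10 at 4 h. Cnot7, the deadenylase bound by the Btg and Tob domain, changed by 0.07 ± 0.15 at 2 h (95% interval -0.34 to 0.47) and by 0.07 at 4 h, and its paralogue Cnot8 by 0.12 ± 0.06 (interval -0.03 to 0.27) and 0.05. Neither was called with the 75th percentile, and each turned below 0 in some scalings; with spike-in scaling Cnot8 fell by 0.34 at 2 h (adjusted p = 0.00879) and fell by 0.21 at 4 h (adjusted p = 0.0439). Pde12, a mitochondrial poly(A) exonuclease, fell by 1.31 ± 0.14 at 2 h (limma, adjusted p = 0.00357); a second Pde12 probe had -0.95 (adjusted p = 0.0635). Cnot11, a CCR4-NOT subunit, fell by 0.41 at 2 h (adjusted p = 0.0147), where a second probe had -0.05 (adjusted p = 0.62). Pabpc4, a poly(A)-binding protein, rose by 0.37 at 2 h (adjusted p = 0.0268; -0.08 with spike-in scaling) and by 0.39 at 4 h (adjusted p = 0.0217). Of 19 alternative settings, 12 ended the call of Pabpc4 at 2 h and 10 at 4 h, and 6 ended that of Cnot11 at 2 h.

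Among p53 targets, the group to which Btg2 is commonly counted, 20 of 27 rose at 2 h, 2 fell and 5 were not called (median 0.74). At 4 h 21 rose, 1 fell and 5 were not called (median 1.07). Of all genes 22.7% rose and 14.8% fell at 2 h (median 0.12), and 23.9% rose and 18% fell at 4 h (median 0.07). With spike-in scaling 12 of the 27 rose at 2 h. Gdf15, a secreted stress cytokine, rose by 2.88 ± 0.10 at 2 h (limma, adjusted p = 0.000271) and by 3.05 at 4 h (adjusted p = 0.000292). Pmaip1, the proapoptotic protein Noxa, rose by 1.94 and by 2.54 (adjusted p = 0.000205 and 0.000165), and Ptprv, a phosphatase of the p53 response, by 1.61 and by 3.02 (adjusted p = 0.00221 and 0.000606), with 0.49 and 1.30 by its other probe. From 2 h to 4 h 13 of the 27 rose and none fell, where 13.1% of all genes rose and 15.7% fell. The p53 transcript itself, Trp53, changed by 0.31 ± 0.13 at 2 h (adjusted p = 0.133) and by -0.001 at 4 h (adjusted p = 0.995), with either sign at 4 h among the scalings. Plk2 is counted both here and among the immediate early genes.

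The lists around Ier5 were the targets of HSF1, chiefly heat shock chaperones, and the subunits of PP2A. Of 19 tested HSF1 targets 9 rose and none fell at 2 h (median 0.35), and 11 rose and none fell at 4 h (median 0.32). Of all genes 22.7% rose and 14.8% fell at 2 h (median 0.12), and 23.9% rose and 18% fell at 4 h (median 0.07). With quantile normalization 3 rose at 2 h, and with spike-in scaling 8 fell at 2 h. Hspa1a, the inducible Hsp70, rose by 1.13 ± 0.06 at 2 h and by 1.61 at 4 h (limma, adjusted p = 0.000611 and 0.000366), a gene whose near-identical copy Hspa1b may share its probes. Hspb8, a small heat shock protein, rose by 0.73 and by 0.97 (adjusted p = 0.00227 and 0.00122), and Bag3, its co-chaperone, by 0.80 and by 0.58 (adjusted p = 0.00294 and 0.0066). The Hsf1 transcript was not called, with 0.21 ± 0.22 at 2 h and 0.14 at 4 h by its brightest probe, and -0.17 and -0.12 at 2 h and -0.22 and -0.16 at 4 h by its other probes, of which none was called.

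Of 15 tested PP2A subunits 5 rose and none fell at 2 h (median 0.22), and 5 rose and 2 fell at 4 h (median 0.05), where 22.7% of all genes rose and 14.8% fell at 2 h (median 0.12) and 23.9% rose and 18% fell at 4 h (median 0.07). With quantile normalization none rose at 2 h, and with spike-in scaling 7 fell at 2 h and 7 at 4 h. Ppp2r2c, a regulatory subunit, had 0.53 ± 0.31 at 2 h (limma, adjusted p = 0.231) and rose by 1.97 at 4 h (adjusted p = 0.00936), with low levels of -4.91 and -5.82 in untreated cells. The rise was 0.61 with normexp and quantile normalization and lost its call without 4 h replicate 1 (adjusted p = 0.0503). Ppp2r2b had -0.03 at 2 h and fell by 0.57 at 4 h (adjusted p = 0.00468), and Ppp2r5d rose by 0.43 and by 0.55 (adjusted p = 0.0392 and 0.0188; -0.02 at 2 h with spike-in scaling). Of 19 alternative settings, 12 ended the call of Ppp2r5d at 2 h and 8 at 4 h. Of the relatives of the 8 genes, Ier5l was not called (-0.07 at 2 h and 0.11 at 4 h), and Btg4 was not well above background on any array.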

How the data were processed

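Per the file headers, the authors extracted spot signals with Feature Extraction 9.5.3.1, and the deposited scanner files and value table hold fluorescence intensity on a linear scale; the values of both are equal within 5e-04. From the deposited intensity, log2 values were computed here, minus each array's 75th percentile over 43379 non-control spots. Repeated spots were averaged, spots with an outlier flag left out (44 tested probes lacked an array, none of the 8 genes), and probes named by accession or symbol. Probes well above background on every array of 1 group or more were fitted with limma 3.58.1 in R 4.3.3 (package data.table, version 1.17.8), all 6 arrays in 1 model with 3 residual and 1.69 prior degrees of freedom, and the Benjamini-Hochberg adjustment over 25886 probes. The brightest probe stood for a gene. The script was tested on simulated data.

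The members and lists were chosen with earlier results of these data known. Named besides the 8 genes were, per list, up to 3 called genes with the largest change, 6 genes whatever their result, and the 2 nearest profiles. Replicate numbers coincide with slides, and same-numbered arrays deviated together (correlations 0.215, 0.19 and 0.21). The main fit, which gave the p-values unless another setting is named, held no term for this pairing. The pairing entered only the changes within slides and the alternative fit with the replicate number as a block. Replicates of a group correlated at 0.992 to 0.993. Alternatives were the scaling, background correction, filter, probe rule, variance trend, deposited table, replicate block, slide and leaving out each array. No build is named for the probe positions, so only distances within a gene are printed. Precision is limited by the number of arrays. Other markers (macrophage, neural, muscle, adipocyte, erythroid) had 3 of 7, 1 of 3, 1 of 3, 1 of 4 and 1 of 2 tested genes up at 2 h. Of all tested genes 22.7% rose at 2 h. Among the 7 tested macrophage markers 6 were well above background on all 6 arrays.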

Additional observations from a re-analysis of the deposited data

Results flagged for a closer look

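For 7 probes of 5 genes the change at 4 h differed from that at 2 h in the same fit, by limma's test of 4 h against 2 h. The difference was 1.11 on the log2 scale for Tob1 (adjusted p = 0.00348), 0.597 for the brightest Btg1 probe (adjusted p = 0.00452) and 0.754 for the Btg1 probe 656 bases upstream (adjusted p = 0.0127), all with both 4 h arrays above both 2 h arrays. It was -0.357 for Ier3 (adjusted p = 0.0294), -0.592 and -0.632 for the Btg2 probes 1822 and 2087 bases upstream (adjusted p = 0.0276 and 0.00774) and -0.991 for the dim Ier2 probe (adjusted p = 0.0429), all with both 4 h arrays below both 2 h arrays. Of the 7, all but those of Tob1 and of the brightest Btg1 probe lost their call when 1 or more of the arrays were left out singly, as given with each gene.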

How the results depend on the processing

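With 2 arrays per group, calls near the threshold rest on single arrays, and the 75th percentile, which differed between groups, sets the size of every change. Of the values of the 8 genes' probes under the alternatives, 639 kept their direction and, where tested, their side of the threshold, 109 lost their call, 17 gained one and 24 turned their sign. The changes within slides are among these values. They had no test and were compared by direction only. The deposited value table, 1 probe per gene, and the filter on all 6 arrays moved no count of called genes or probes by over 1.5 times. Causes were not tested.

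With the main setting 5 of the 8 genes rose and 2 fell at 2 h, 7 rose at 4 h, 2 rose and 1 fell from 2 h to 4 h, and 9235, 10510 and 7274 of all probes were called in the 3 comparisons. With median centring 3 genes rose at 2 h and 4 at 4 h. With no scaling 2 rose at 4 h and 0 fell from 2 h to 4 h. With spike-in scaling 3 rose at 2 h, 3 at 4 h and 0 fell from 2 h to 4 h, and 15414 probes were called at 2 h. With normexp and the 75th percentile 2 rose and 0 fell at 2 h, 2 rose at 4 h, and 1 rose and 0 fell from 2 h to 4 h, with 1695, 2767 and 1030 probes called. With no filter on dim probes, which adds probes to the adjustment, 0 fell at 2 h, 4 rose at 4 h and 0 fell from 2 h to 4 h, with 5303, 6264 and 3381 probes called. From 2 h to 4 h 3 fell when probes of a gene were averaged, among them Btg2 and Ier2, and 2 with an intensity trend in eBayes. With the replicate block, which is the same fit as the slide as a block, 2 genes fell from 2 h to 4 h, and it changed no call of the 8 genes' probes besides those given for Btg3 and Tob2. Among the other genes named, the block took the call of Rad23b at 2 h (adjusted p = 0.0528) and gave one to Pde12 (adjusted p = 0.0223) and Fam207a (adjusted p = 0.0442) at 4 h.

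Leaving out 1 array in turn, 3 to 5 genes rose and 0 to 2 fell at 2 h, 3 to 6 rose at 4 h, and 0 fell from 2 h to 4 h, while called probes ranged from 4546 to 8111 at 2 h, from 5000 to 8500 at 4 h and from 2423 to 5333 from 2 h to 4 h; each such fit has fewer samples. Over all alternatives, list genes that rose at 2 h and at 4 h numbered 15 to 29 and 9 to 22 for immediate early genes (27 and 17 with the main setting), 12 to 22 and 18 to 23 for p53 targets (20 and 21), 3 to 11 and 2 to 11 for HSF1 targets (9 and 11), 0 to 7 and 1 to 6 for PP2A subunits (5 and 5) and 0 to 4 at both times for deadenylation factors (2 and 4). Those that fell numbered 0 to 8 and 1 to 7 (1 and 5), 0 to 4 and 0 to 1 (2 and 1), 0 to 8 and 0 to 3 (0 and 0), 0 to 7 and 0 to 7 (0 and 2), and 1 to 13 and 0 to 10 (4 and 3).

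With quantile normalization the sign turned at 2 h Cnot7 to -0.00158, and at 4 h Trp53 to 0.00655, and from 2 h to 4 h Ier2 to 0.0278, Ier5 to 0.0399. With median centring the sign turned at 2 h Cnot7 to -0.133, Cnot8 to -0.0808, and at 4 h Cnot7 to -0.085, Cnot8 to -0.103, Hsf1 to -0.0196, and from 2 h to 4 h Ier2 to 0.0243, Ier5 to 0.0331. With no scaling the sign turned at 2 h Cnot7 to -0.272, Cnot8 to -0.22, Hsf1 to -0.123, Trp53 to -0.023, and at 4 h Btg1 to -0.0268, Tob2 to -0.0566, Cnot7 to -0.189, Cnot8 to -0.207, Hsf1 to -0.123, Fam207a to -0.0644, and from 2 h to 4 h Ier2 to 0.0599, Ier5 to 0.0687. With spike-in scaling the sign turned at 2 h Pabpc4 to -0.0818, Ppp2r5d to -0.0206, Cnot7 to -0.387, Cnot8 to -0.335, Hsf1 to -0.238, Trp53 to -0.138, Rad23b to -0.0252, and at 4 h Btg1 to -0.0287, Tob2 to -0.0585, Cnot7 to -0.191, Cnot8 to -0.209, Hsf1 to -0.125, Dph2 to -0.00139, Fam207a to -0.0664, and from 2 h to 4 h Ier2 to 0.173, Ier5 to 0.182, Btg2 to 0.0778. With normexp and the 75th percentile the sign turned at 2 h Ppp2r2b to 0.0204, and at 4 h Cnot8 to -0.0048, Trp53 to 0.0144. With normexp and quantile normalization the sign turned at 2 h Ppp2r2b to 0.0287, and at 4 h Trp53 to 0.00764, and from 2 h to 4 h Ier2 to 0.0223, Ier5 to 0.0227. When probes of a gene were averaged the sign turned at 2 h Hsf1 to -0.0235, and at 4 h Tob2 to -0.0883, Cnot7 to -0.101, Hsf1 to -0.0806. Within slide 1 the sign turned from 2 h to 4 h Ier2 to 0.131, Ier5 to 0.0313, Tob2 (probe 717 bases upstream) to -0.15. Leaving out 1 array in turn, the sign turned for at least 1 array in values that ranged as follows, for Ppp2r2b at 2 h -0.0934 to 0.0327, Cnot7 at 2 h -0.0608 to 0.191, Ier2 (upstream probe) at 4 h -0.0206 to 0.602, Cnot7 at 4 h -0.0683 to 0.211, Hsf1 at 4 h -0.0409 to 0.314, Trp53 at 4 h -0.103 to 0.101, Hsf1 at 2 h -0.0299 to 0.458, Ier2 from 2 h to 4 h -0.0956 to 0.061, Tob2 (probe 717 bases upstream) from 2 h to 4 h -0.151 to 0.513, Ier5 from 2 h to 4 h -0.0554 to 0.0383.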
